A study of Mus musculus with 3 samples.

Results

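Vascular smooth muscle cells of the aorta were compared between mice carrying human APOE4 and mice carrying human APOE3, 1 pooled single-cell library on each side. The cells were taken by a gate on the deposited counts of unique molecular identifiers (UMIs, each standing for 1 captured RNA molecule). A cell was kept with at least 200 detected genes, under 20% of UMIs from the mitochondrial genome, at least 5000 UMIs, Acta2 and Tagln together at 2% or more of UMIs, Dcn under 0.5% of UMIs and fewer than 3 UMIs of C1qa, C1qb and C1qc. This left 5674 of 8248 quality-passing cells of the APOE4 library and 4910 of 6737 of the APOE3 library, 10584 cells of 26757 in the whole series. Levels of Acta2, Tagln, Dcn and C1qa follow from the gate and are no result.

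All animals were male gene replacement mice, backcrossed to C57BL/6J, in which the human APOE2, APOE3 or APOE4 gene stands in place of mouse Apoe. They received a Western diet with 42% fat and 0.2% cholesterol for 16 weeks from 12 weeks of age. The aortas of 5 APOE3 mice and of 7 APOE4 mice were pooled into a library each, and an APOE2 library from 6 mice is given side by side for its levels only. With 1 library per genotype there was no replicate, no p-value can be given, and genotype cannot be told apart from pool, dissociation or library. The comparison addresses how the apoE isoform relates to the state of aortic smooth muscle.

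Apolipoprotein E carries lipid between cells and binds receptors of the LDL receptor family. Smooth muscle cells build the aortic media: they hold contractile filaments and lay down elastic fibres, collagens and proteoglycans. In diseased arteries such cells can lose contractile genes and take on fibroblast-like, inflammatory or osteochondrogenic programmes. Immediate early genes are transcription factors and feedback regulators that are switched on within minutes by growth factors, stress and tissue handling, so their RNA also responds to enzymatic dissociation.

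The gated cells held 102970023 UMIs in the APOE4 library and 107438328 in the APOE3 library, with a median of 15660 and 19950 UMIs per cell. They carried the defining markers of smooth muscle: Myh11 stood at 2708 CPM (UMIs of the gene per 1000000 UMIs of the gated cells) in APOE4 and 2562 in APOE3, and Cnn1 at 1352 and 1414 CPM. The 2 libraries shared 23 barcodes, 6 of them between gated cells. The mouse Apoe row read 155 CPM in APOE4, 162 in APOE3 and 158 in APOE2, a log2 ratio of -0.06 (95% counting interval -0.09 to -0.03). The reference of the files has no human APOE row, so these values do not check the allele. The Y-linked gene Ddx3y was at 77.7 CPM in APOE4 and 81.3 in APOE3.

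Summed over the gated cells, 9723 genes had a mean of at least 5 CPM over the APOE3 and APOE4 libraries. Of these, 307 genes (3.16%) were at least 1.5-fold higher in APOE4 and 132 (1.36%) at least 1.5-fold lower. The count of members past 1.5-fold in each gene list below is to be read beside these percentages. At 2-fold the counts were 101 genes (1.04%) higher and 17 (0.175%) lower. The log2 ratio of APOE4 to APOE3 had a median of -0.09 over these genes, with the 5th percentile at -0.40 and the 95th at 0.44, and 82.7% of genes lay within 1.25-fold. With that median set to 0, the counts at 1.5-fold became 399 higher and 73 lower. Each interval given here is an exact 95% interval of the ratio of 2 counts and covers counting error only, not differences between mice or preparations.

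**Figure D1:**
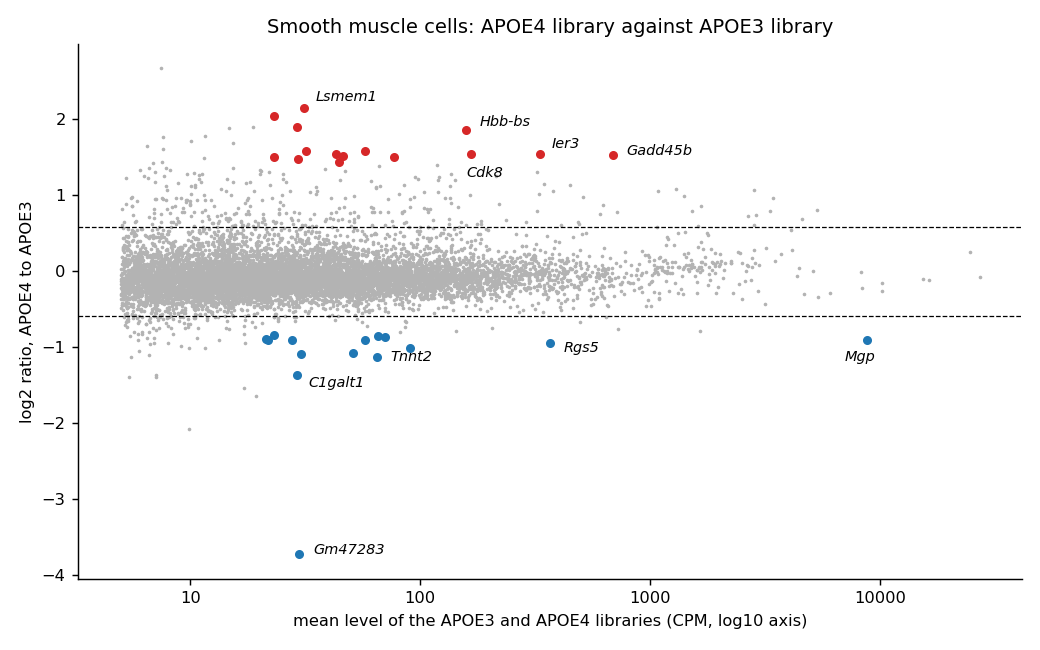
Log2 ratio of APOE4 to APOE3 (vertical axis) against the mean level in CPM (log10 axis) for the 9723 genes; red and blue points are the 15 highest and 15 lowest genes among those with a mean of at least 20 CPM, and dashed lines mark 1.5-fold. Gm47283 lies far below the other genes, and Mgp is the most abundant of the lowest 15.

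The 15 genes with the highest ratio were led by Lsmem1, which encodes a leucine-rich single-pass membrane protein. Its level was 51.0 CPM in APOE4 against 11.6 in APOE3 and 7.34 in APOE2, a log2 ratio of 2.14 (2.05 to 2.23). The APOE4 library stood far above the other pair. Cdk8, the kinase of the Mediator complex, was at 248.0 CPM in APOE4 and 85.5 in APOE3, with APOE2 at 109 CPM. Gadd45b, a stress-induced regulator of growth arrest (chr10:80930073-80932204, plus strand), was the most abundant of the 15: it was at 1021 CPM in APOE4, 354 in APOE3 and 301 in APOE2. Gdf15, a stress-induced cytokine, was at 68.7 CPM in APOE4 and 24.1 in APOE3. Further members were Ier3, Klf10, Rgcc, Fxyd7, Zfp568 and Gm15564, with log2 ratios between 1.44 and 1.59, and the 4 haemoglobin genes Hbb-bt, Hbb-bs, Hba-a1 and Hba-a2.

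The haemoglobin counts sat in few cells. Hbb-bs read 248 CPM in APOE4, 68.5 in APOE3 and 357 in APOE2, a log2 ratio of 1.85. The 1% of gated cells with most Hbb-bs UMIs held 93.5% of them in APOE4 and 63.1% in APOE3. After every cell was thinned to 5000 UMIs, Hbb-bs had a UMI in 9.52% of APOE4 and 6.01% of APOE3 smooth muscle cells, and in 12.4% and 2.79% of the fibroblasts of the same libraries, which should lack it. The APOE4 smooth muscle share lay below the fibroblast share of that library and the APOE3 share above it. By level, Hbb-bs had a log2 ratio of -0.47 in fibroblasts and Hbb-bt of -0.44, whereas Hba-a1 had 1.12 and Hba-a2 0.90. Erythroid markers were summed at 372 CPM in APOE4 fibroblasts and 379 in APOE3 fibroblasts. What the few cells with most haemoglobin UMIs are was not tested.

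Among the 15 genes with the lowest ratio, the matrix Gla protein Mgp, an inhibitor of vascular calcification (chr6:136872435-136875823, minus strand), carried by far the most molecules. It was at 6153 CPM in APOE4, 11501 in APOE3 and 10007 in APOE2, a log2 ratio of -0.90 (-0.91 to -0.90). Per cell, thinned to 5000 UMIs, the quartiles of Mgp were 14, 23 and 36 UMIs in APOE4 and 24, 41 and 67 in APOE3, so the whole distribution was shifted. Rgs5, a regulator of G protein signalling known from mural cells, was at 251 CPM in APOE4 and 485 in APOE3, with APOE2 at 331 CPM. Tnnt2, the cardiac troponin T gene, was at 40.6 CPM in APOE4, 88.8 in APOE3 and 206 in APOE2. Carmn, a long non-coding RNA of smooth muscle, was at 60.1 CPM in APOE4, 121 in APOE3 and 160 in APOE2. Extracellular and secreted members of these 15 included Mgp, Acan, Srpx2, Wnt16, Lpl, Igfbp4 and Tnfrsf11b. Other members were C1galt1, which builds O-glycans, Fxyd5, Sphkap and Gm47283.

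Gm47283 (chrY:90784738-90816464), annotated as protein coding on the Y chromosome, had the lowest ratio of all counted genes, at 4.18 CPM in APOE4, 55.3 in APOE3 and 15.6 in APOE2. The same gene was lower in the fibroblasts of the APOE4 library, at a log2 ratio of -4.30. Ddx3y, elsewhere on that chromosome, had a log2 ratio of -0.07 in smooth muscle and is no check on Gm47283. Whether the mouse lines differ in DNA sequence at Gm47283 was not tested.

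**Figure D2:**
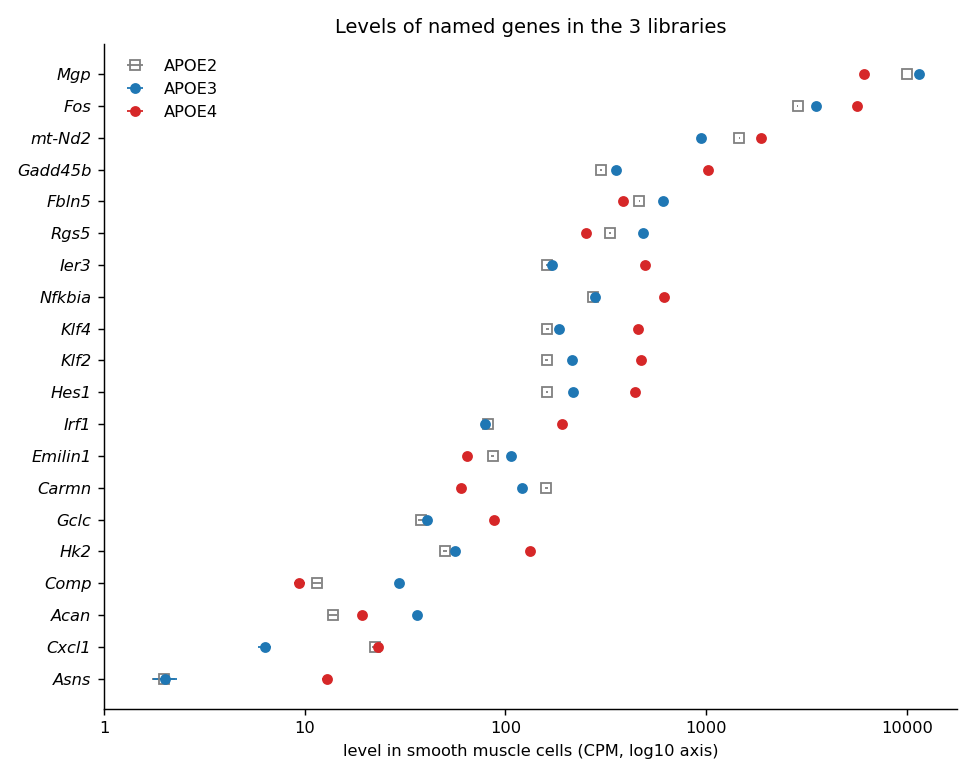
Level in smooth muscle cells (CPM, log10 axis) of 20 genes in the APOE2, APOE3 and APOE4 libraries, 1 pooled library each; bars are exact 95% Poisson intervals and are mostly smaller than the points. Gadd45b, Ier3, Nfkbia, Klf4 and Asns stand apart in APOE4 from both other libraries, whereas Cxcl1 is nearly as high in APOE2 as in APOE4.

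The immediate early genes were higher together. Of 24 list members, all 24 were counted, 19 were past 1.5-fold higher and none past 1.5-fold lower, against 3.16% of all counted genes higher, and the median log2 ratio was 0.77 against -0.09 over all counted genes. Fos, a subunit of the AP-1 transcription factor, was at 5673 CPM in APOE4, 3532 in APOE3 and 2863 in APOE2, a log2 ratio of 0.68 (0.68 to 0.69). Egr1, a zinc finger factor, was at 2151 CPM in APOE4 and 1185 in APOE3. Ier3, an early response gene of cell survival, was at 495 CPM in APOE4, 170 in APOE3 and 162 in APOE2. The smallest difference in the list was that of Jun, the partner of Fos, at 2175 CPM in APOE4 and 1853 in APOE3, a log2 ratio of 0.23 (0.22 to 0.24). Myc and Dusp5 were low but past 2-fold, Myc at 15.5 CPM in APOE4 against 6.87 in APOE3 and Dusp5 at 31.3 against 12.7 CPM.

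Summed, the 24 genes took a median of 1.92% of a cell's UMIs in APOE4, 0.955% in APOE3 and 0.846% in APOE2. The lowest cells were alike, with the 5th percentile at 0.172% in APOE4 and 0.164% in APOE3, while the 25th percentile was 1.00% against 0.479%. In the fibroblasts of the same libraries, taken as cells with Dcn at 0.5% of UMIs or more and Acta2 and Tagln under 2%, the list had a median log2 ratio of 0.92, from 846 APOE4 and 574 APOE3 cells. In the 115 and 105 macrophages, taken by C1q counts of at least 10 UMIs, it was 0.04. The difference between these cell types was not tested.

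**Figure D3:**
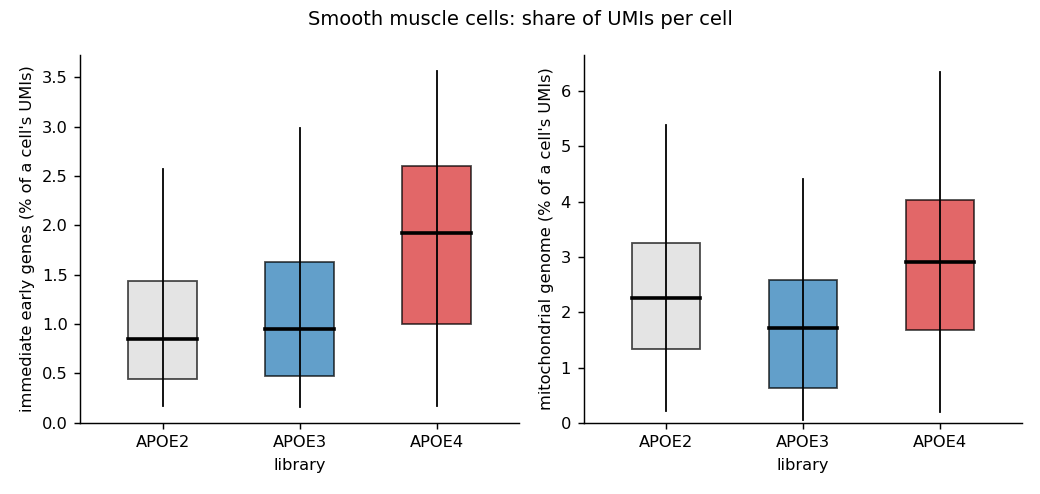
Share of a cell's UMIs (percent) from the immediate early genes (left) and from the mitochondrial genome (right) in gated smooth muscle cells of each library; boxes give quartiles, the thick line the median and whiskers the 5th and 95th percentiles. The APOE4 median is above the other 2 libraries in both panels.

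RNA of the mitochondrial genome was also higher in APOE4, whereas the nuclear genes of the respiratory chain were not. Of 13 mitochondrial messenger RNAs, 10 were past 1.5-fold higher, against 3.16% of all counted genes, and none lower. The median log2 ratio was 0.79. The subunit gene mt-Nd2 of complex I was at 1877 CPM in APOE4, 943 in APOE3 and 1462 in APOE2, a log2 ratio of 0.99 (0.98 to 1.00). The APOE2 level lay between the other 2 libraries. Cytochrome oxidase gene mt-Co3 was at 4537 CPM in APOE4 and 2326 in APOE3, and the short mt-Atp8 had the highest ratio at 1.40. Of 37 counted nuclear genes of complex I and 38 of complexes II to V, none was past 1.5-fold in either direction, with medians of -0.01 and -0.02. A high mitochondrial share is also a common sign of damaged cells. The median share per cell was 2.91% in APOE4, 1.72% in APOE3 and 2.26% in APOE2, and the part of cell damage in this difference was not tested. Over the 15 other ways of choosing or scaling the cells, the median of the 13 genes lay between 0.72 and 1.00. In fibroblasts the median of the 13 genes was 0.60.

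The response genes of NF-kB, the transcription factor activated by Toll-like and cytokine receptors, moved in part. Of 19 counted members of 25, 7 were past 1.5-fold higher and 1 lower, against 3.16% and 1.36% of all counted genes, with a median log2 ratio of 0.27. Nfkbia, the feedback inhibitor of NF-kB, was at 616 CPM in APOE4, 280 in APOE3 and 272 in APOE2, a log2 ratio of 1.14 (1.12 to 1.16). Irf1, an interferon regulatory factor, was at 192 CPM in APOE4, 79.3 in APOE3 and 81.6 in APOE2. Socs3, the inhibitor of cytokine signalling, was at 185 CPM in APOE4 and 84.8 in APOE3. In Nfkbia and Irf1 the APOE3 level was close to that of APOE2, and Socs3 was at 62.4 CPM in APOE2. Icam1 and Tnfaip3, an adhesion molecule and a deubiquitinase, were past 2-fold at low level: Icam1 at 8.60 against 3.43 CPM and Tnfaip3 at 10.0 against 4.06 CPM. The subunit gene Rela had a log2 ratio of -0.09 and the receptor gene Tlr4 of 0.02, whereas Vcam1, an adhesion molecule of modulated cells, was lower at 41.8 CPM in APOE4 against 64.9 in APOE3. Among chemokines only 3 of 16 were counted. Cxcl1, which draws neutrophils, was at 23.3 CPM in APOE4, 6.31 in APOE3 and 22.5 in APOE2, so there the APOE3 library stood alone. None of 11 counted interferon-stimulated genes was past 1.5-fold, with a median of -0.13.

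Promoters of 3 of these genes that were higher and 1 that was lower are printed because a short motif stands in each. Each is the 250 bases before the RefSeq start site (build GRCm38.p6), 5′ to 3′ on the gene's strand, and the capitals mark the motif matched. The NF-kB consensus was found 92 bases before the start of Ier3 (chr17:35821463-35821712, plus strand), 29 bases before Nfkbia (chr12:55492648-55492897, minus strand) and 13 bases before Irf1 (chr11:53769764-53770013, plus strand). In Srpx2, a lower gene, the AP-1 letters TGANTCA stood 59 bases before the start (chrX:133908175-133908424, plus strand). The printed genes do not stand for all named genes. The NF-kB consensus also stood in the higher genes Rgcc, Fos and Fosb and in the lower genes Wnt16 and Acan. It was searched as a loose pattern, so the matched letters varied, as with GGGGCGTCCC in Rgcc and GGAGCGCCCC in Wnt16. The NF-kB consensus was absent from the higher genes Socs3, Gadd45b, Klf4 and Klf2.
Ier3: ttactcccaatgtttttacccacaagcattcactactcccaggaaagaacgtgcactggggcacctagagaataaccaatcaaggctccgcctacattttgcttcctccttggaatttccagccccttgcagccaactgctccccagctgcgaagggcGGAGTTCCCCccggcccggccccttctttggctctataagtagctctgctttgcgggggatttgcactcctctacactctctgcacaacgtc
Nfkbia: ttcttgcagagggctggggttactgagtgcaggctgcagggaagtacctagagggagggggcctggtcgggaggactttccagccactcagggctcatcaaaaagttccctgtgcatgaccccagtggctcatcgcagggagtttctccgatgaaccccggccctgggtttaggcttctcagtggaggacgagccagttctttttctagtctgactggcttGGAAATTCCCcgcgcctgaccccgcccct
Irf1: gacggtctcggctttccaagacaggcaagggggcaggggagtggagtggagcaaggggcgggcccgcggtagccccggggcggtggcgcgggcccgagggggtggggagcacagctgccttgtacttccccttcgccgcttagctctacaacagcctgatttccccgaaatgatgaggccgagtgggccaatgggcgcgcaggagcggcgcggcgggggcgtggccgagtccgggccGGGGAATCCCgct
Srpx2: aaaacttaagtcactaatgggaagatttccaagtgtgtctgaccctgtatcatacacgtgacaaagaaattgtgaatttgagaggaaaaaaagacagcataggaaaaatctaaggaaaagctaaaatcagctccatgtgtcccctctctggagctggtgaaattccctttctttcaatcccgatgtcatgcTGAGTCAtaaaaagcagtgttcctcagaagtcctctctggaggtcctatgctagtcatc
Searched on both strands, the NF-kB consensus was in 8.62% of the 7763 counted genes with a promoter, in 15.5% of 226 genes past 1.5-fold higher and in 7.22% of 97 lower. The AP-1 letters were in 3.59% of all, 3.98% of higher and 9.28% of lower genes, and the letters TGACGTCA of the cAMP response element in 2.94%, 3.54% and 0%. A match is a run of letters and does not show that a factor binds.

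Outside these lists, single stress and metabolic genes were past 1.5-fold, and shifts of whole lists were small. Of 18 heat shock genes none was past 1.5-fold, and 14 had a ratio above 0. Their median log2 ratio was 0.11, against -0.09 over all counted genes. Hspb1, a small heat shock protein, was at 4533 CPM in APOE4 and 3741 in APOE3, a log2 ratio of 0.28. Of 23 counted genes of the unfolded protein and integrated stress response, 4 were past 1.5-fold higher, against 3.16% of all counted genes. None was lower, and the median was -0.01. Asns, asparagine synthetase, was at 12.8 CPM in APOE4, 2.02 in APOE3 and 1.98 in APOE2, the largest ratio of any list member at log2 2.67 (2.46 to 2.88). Asns lies on chromosome 6 beside C1galt1 and other genes past 1.5-fold in both directions, and whether the mouse lines differ in DNA sequence there was not tested, so no stress response is read from its ratio. Ern1, the IRE1 sensor of the endoplasmic reticulum, was at 35.2 against 15.2 CPM. Hspa5, the main chaperone of that compartment, was at 698 against 567 CPM, a log2 ratio of 0.30. Of 23 oxidant and antioxidant genes, 3 were past 1.5-fold higher, against the same 3.16%, and the median was -0.11. Gclc, which makes the glutathione precursor, was at 87.6 CPM in APOE4, 40.8 in APOE3 and 37.9 in APOE2. The metallothionein Mt1 was at 760 CPM in APOE4 and 454 in APOE3, yet at 1480 in APOE2, and its partner Mt2 had the same order. Of 23 hypoxia and glycolysis genes, 4 were past 1.5-fold higher, against the same 3.16%: hexokinase Hk2 at 133 CPM against 56.3, with Vegfa, Adm and Egln3. The abundant glycolytic genes lay the other way together, among them Pkm at a log2 ratio of -0.43, Eno1 at -0.37, Gapdh at -0.29 and Aldoa at -0.22. The median of the hypoxia and glycolysis list was -0.18.

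Contractile genes differed little. Apart from the gate genes Acta2 and Tagln, 21 genes of the contractile apparatus were counted, none was past 1.5-fold, and the median log2 ratio was -0.02. Myh11, smooth muscle myosin, had a log2 ratio of 0.08 (0.07 to 0.09), Cnn1, calponin, -0.06, Smtn, smoothelin, -0.11, and Speg -0.13. Myl9, the regulatory light chain, was the lowest of these at 4738 CPM in APOE4 and 5980 in APOE3, a log2 ratio of -0.34 (-0.34 to -0.33). Among the regulators of this programme Myocd had a log2 ratio of 0.21 and Srf of -0.21, within the spread of the counted genes. The Krüppel-like factors that act against or beside them stood out: Klf4, which represses contractile genes, was at 458 CPM in APOE4, 185 in APOE3 and 162 in APOE2, a log2 ratio of 1.31 (1.29 to 1.33), and Klf2 was at 475, 215 and 161 CPM. Klf10 was the other of 12 counted members past 1.5-fold, with a list median of 0.20. Of 19 counted TGF-beta and BMP genes, 2 were past 1.5-fold higher and 1, Gdf10, lower, against 3.16% and 1.36% of all counted genes. The list median was 0.20. The higher genes were the BMP targets Id1, at 352 against 226 CPM, and Id3, at a log2 ratio of 0.586, just past the limit. Id2 at 0.245 and Smad6 at 0.04 were not past it. Hes1, the Notch target, was at 440 CPM in APOE4, 218 in APOE3 and 161 in APOE2, whereas 5 other counted Notch genes were not past 1.5-fold.

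Signalling, growth and lipid lists held few genes past 1.5-fold, beside 3.16% higher and 1.36% lower of all counted genes. Of 22 counted calcium handling and ion channel genes, 1 was lower, Pln, phospholamban, at 7.67 CPM in APOE4 and 11.9 in APOE3. Of 13 counted vasoactive receptor and cyclic nucleotide genes, Rgs2 was higher, at 63.0 against 40.1 CPM, and Rgs5 and Ptger3 were lower. Of 14 IGF and PDGF genes 2 were lower, the binding proteins Igfbp4 and Igfbp2, and the median was -0.24. None of 12 counted Wnt genes was past 1.5-fold, with a median of -0.21. Of 25 lipid uptake, storage and efflux genes, the cholesterol exporter Abca1 was higher, at 17.6 CPM in APOE4, 10.9 in APOE3 and 23.1 in APOE2, and Lpl, lipoprotein lipase, was lower, at 14.9, 27.8 and 44.5 CPM in that order. None of 21 counted genes of sterol and fatty acid synthesis was past 1.5-fold, with a median of -0.14. Of 7 counted MHC class I genes 1 was lower, and all 7 had a ratio below 0, with a median of -0.43 and B2m at 279 CPM against 371.

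The cell cycle list differed through its growth arrest members, since 13 of its 21 genes were under the mean of 5 CPM. Of 8 counted, 4 were past 1.5-fold higher, against 3.16% of all counted genes: Gadd45b, Gadd45a, Gadd45g and Cdkn1a. Cdkn1a, the p21 inhibitor of cyclin-dependent kinases, was at 189 CPM in APOE4, 105 in APOE3 and 125 in APOE2. Of 11 glucocorticoid response genes 3 were higher, against the same 3.16%, with a median of 0.28. Among them was Errfi1, a feedback inhibitor of the EGF receptor, at 162 against 78.5 CPM. Of 18 clock genes 2 were higher, Usp2 and Nfil3, again against 3.16%, and the median was 0.17.

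The proteoglycan and elastic fibre lists lay below the median of all counted genes, which was itself -0.09. Of 21 counted proteoglycan and matricellular genes, 5 were past 1.5-fold lower, against 1.36% of all counted genes, none was higher, 2 had a ratio above 0, and the median was -0.36. Comp, the cartilage oligomeric matrix protein, was at 9.38 CPM in APOE4, 29.4 in APOE3 and 11.5 in APOE2, a log2 ratio of -1.65 (-1.75 to -1.54). Acan, aggrecan, was at 19.3 CPM in APOE4, 36.2 in APOE3 and 13.8 in APOE2. For these 2 cartilage genes the APOE3 library lay above both others. Abundant members were also lower, with Bgn, biglycan, at a log2 ratio of -0.37 and Sparc at -0.28. Ccn2, a matricellular factor, was at 1207 CPM in APOE4, 2090 in APOE3 and 1604 in APOE2.

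Of 18 elastic fibre genes, 3 were past 1.5-fold lower, against 1.36% of all counted genes, and none higher, and the median was -0.34. Fbln5, fibulin 5, which joins elastin to the cell, was at 384 CPM in APOE4, 609 in APOE3 and 465 in APOE2, a log2 ratio of -0.66 (-0.68 to -0.65). Emilin1, a glycoprotein of elastic fibres, was at 64.4, 107 and 86.4 CPM in that order, so APOE2 lay between. Eln, elastin, was at 964 CPM in APOE4 and 1229 in APOE3, with 1215 in APOE2. Collagens, with a median of -0.12 near that of all genes, differed less: 1 of 15 was past 1.5-fold, Col8a1 at a log2 ratio of -1.11, with Col1a2 at a log2 ratio of -0.02 and Col3a1 at -0.22. Of 18 matrix proteases and inhibitors, with a median of -0.13, 4 were lower and 1 higher, against 1.36% and 3.16% of all counted genes. Mmp3 was among the lower, at 11.8 CPM against 22.8. The higher gene was Adamts9, a versican-cleaving protease, at 55.2 against 21.7 CPM.

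The list of modulated smooth muscle genes lay mostly below 0. Without the gate gene Dcn, 12 of its members were counted, of which 6 were past 1.5-fold lower and 1, Klf4, higher, against 1.36% and 3.16% of all counted genes, and Thbs1 also had a ratio above 0. The median of the 12 was -0.54 against -0.09 over all counted genes. It was -0.28 with Acta2 and Tagln at 3% of UMIs or more and -0.14 in cells with 10000 to 20000 UMIs. Cd34 was at 3.98 CPM in APOE4 and 10.3 in APOE3, Lum, lumican, at 6.52 and 13.1 CPM, and Tnfrsf11b, osteoprotegerin, at 16.6 and 29.7 CPM. Of the 8 counted osteochondrogenic genes, 3 were lower (Acan, Mgp and Tnfrsf11b) and 1 higher, the chondrogenic factor Sox9 at 19.0 against 12.4 CPM. The lower genes also belong to the proteoglycan list (Acan and Mgp) or the modulated list (Tnfrsf11b). Lum and Fn1 are members of both the proteoglycan and the modulated list, so these lists are not independent. Runx2, the bone factor, and Msx2 were under 5 CPM at 1.01 and 1.20 in APOE4 against 1.14 and 0.98 in APOE3, and Hif1a, at 106 against 90.9 CPM, and Wif1, at 83.0 against 105, were not past 1.5-fold.

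Fibroblast markers were lower as well. Their list is not independent of the others, since Lum is also in the proteoglycan and modulated lists and Col1a1 in the collagen list. Of 7 counted fibroblast markers of 8, 5 were past 1.5-fold lower, against 1.36% of all counted genes, with a median of -0.61. The summed level of the list was 884 CPM in APOE4, 1238 in APOE3 and 901 in APOE2, against 16939 and 20100 CPM in the APOE4 and APOE3 fibroblasts. Lum UMIs were concentrated, since 1% of gated cells held 77.0% of them in APOE4 and 43.3% in APOE3. With Dcn limited to 0.1% and no C1q or Lyz2 UMI, the proteoglycan median was -0.34, the elastic fibre median -0.29 and the modulated median -0.51, while the fibroblast markers stood at -0.92. Without the highest 5% of doublet scores, the fibroblast marker median was -1.29. The proteoglycan median was then -0.35, the elastic fibre median -0.34 and the modulated median -0.51. The part of fibroblast RNA in the lower matrix genes was not tested further. Macrophage markers were summed at 15.3 CPM in APOE4 and 11.6 in APOE3, neutrophil markers at 0.680 and 15.1 CPM, T lymphocyte markers at 3.27 and 0.996 CPM and endothelial markers at 36.6 and 25.5 CPM. Of these lists 1 of 9 macrophage, 0 of 6 neutrophil, 0 of 8 T lymphocyte and 1 of 8 endothelial markers reached the mean of 5 CPM. Among defining markers, Cd68 was at 2.74 CPM in APOE4 and 0.726 in APOE3, Cd3e at 0.175 and 0.0558 CPM, and Cdh5 had 1 UMI in each library. Nearly all of the endothelial sum was Pecam1, at 35.4 CPM in APOE4 and 24.1 in APOE3. The macrophage sum was higher in APOE4 through Cd74, at 9.97 against 3.73 CPM, and Cd68. Without Cd74 and Cd68, the summed macrophage markers were lower in APOE4 than in APOE3.

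**Figure D4:**
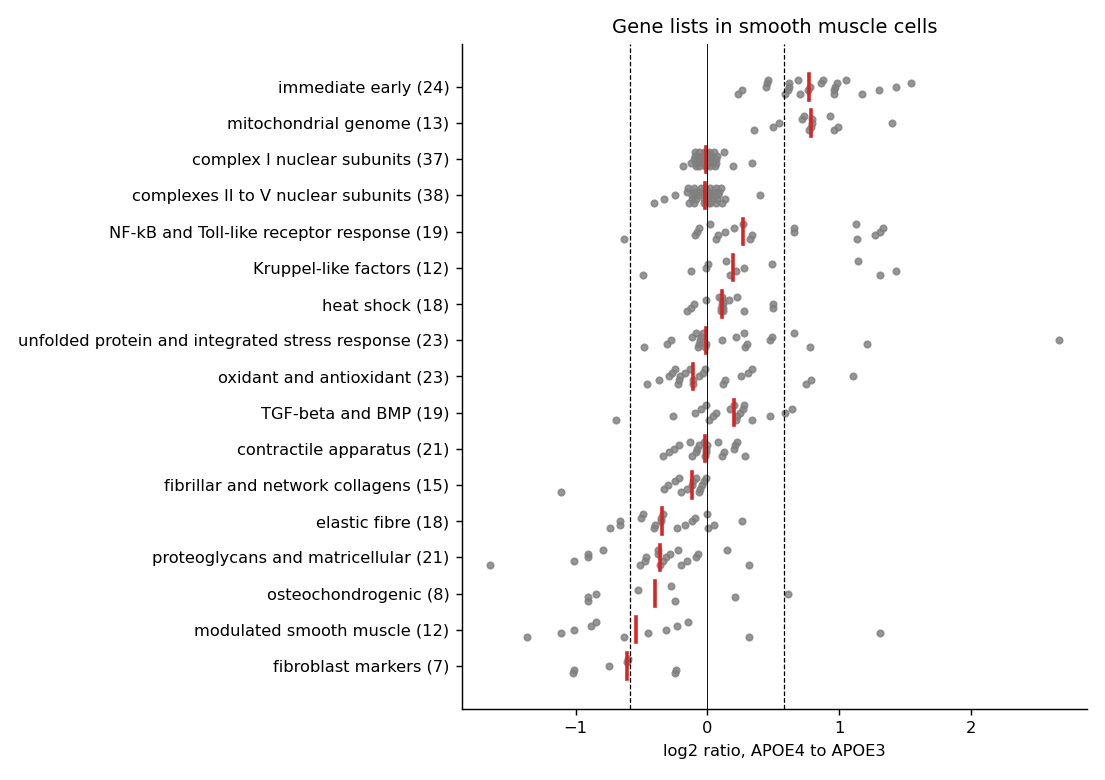
Log2 ratio of APOE4 to APOE3 for each counted member (grey points) of 17 gene lists, without the gate genes Acta2, Tagln and Dcn, with the number of counted members in parentheses and the list median as a red bar; dashed lines mark 1.5-fold. Immediate early and mitochondrial genome lists lie to the right and modulated smooth muscle genes and fibroblast markers to the left, while nuclear respiratory genes cluster at 0.

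A pair of features of the cells varied with the libraries and were used to split them. Hand2, a transcription factor of arch smooth muscle, had at least 2 UMIs in 12.5% of APOE4 cells, 21.5% of APOE3 and 30.7% of APOE2. Thinned to 5000 UMIs per cell, the share with a Hand2 UMI was 10.4% in APOE4, 14.4% in APOE3 and 25.7% in APOE2, against 1.18% of the APOE4 macrophages, which should lack it. Hox genes, some of which the paper uses as markers of the descending aorta, had a UMI in 92.2% and 93.1% of cells in APOE4 and APOE3. A Hox count thus divided the cells poorly. Thinned to 5000 UMIs, the Hox share was 66.9% in APOE4, 64.7% in APOE3 and 58.4% in APOE2. Of 11 counted Hox genes 1, Hoxa5, was past 1.5-fold higher, against 3.16% of all counted genes, and the median was 0.02. Of 5 counted descending aorta genes none was past 1.5-fold, with a median of 0.26 and Hoxa7 at 0.39. Of 5 counted aortic arch genes none was past 1.5-fold either, with a median of -0.09 against -0.09 over all counted genes. Hand2 was the lowest of them at -0.555, whereas Twist1 was at -0.08 and Msx1 at -0.09. In cells with 2 or more Hand2 UMIs, 711 in APOE4 and 1057 in APOE3, the immediate early median was 0.70, the proteoglycan median -0.42, the elastic fibre median -0.20 and the modulated median -0.43. In the 4460 and 3263 cells with no Hand2 UMI these were 0.91, -0.31, -0.30 and -0.72. Mgp had a log2 ratio of -1.09 in the Hand2 cells and -0.82 in those without, and Igfbp2 one of -0.88 and 0.003. Rgs5 was not past 1.5-fold in the Hand2 cells, at -0.35, against -1.17 in those without.

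The second split was on the share of UMIs from the immediate early and heat shock lists together. By library, 36.6% of APOE4 and 65.5% of APOE3 cells, lay at or under the common median of that share. Within them 211 of the 9723 counted genes were past 1.5-fold higher and 127 lower, against 307 and 132 in all gated cells. The immediate early median was 0.40 with 9 of 24 genes past 1.5-fold higher, which the split itself lowers. The NF-kB median was -0.08, with 4 of 19 higher and 1 lower. Of 95 named genes past 1.5-fold in all gated cells, 71 were past it there. Among those that were not, Nfkbia stood at a log2 ratio of 0.48, Fos at 0.31, Egr1 at 0.44, Id1 at 0.15, Id3 at 0.23, Sox9 at 0.09, Mt1 at 0.27, Cdkn1a at 0.43 and Carmn at -0.44. Gadd45b at 1.32, Ier3 at 1.17, Klf4 at 1.03, Irf1 at 1.16 and Gclc at 1.08 were past it. Fos, Egr1 and Ier3 belong to the share that made the split, so the split itself shapes their values. The mitochondrial genome median was 1.00, the proteoglycan median -0.36 and the modulated median -0.74. Mgp was at -0.80 and Asns at 2.58.

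**Figure D5:**
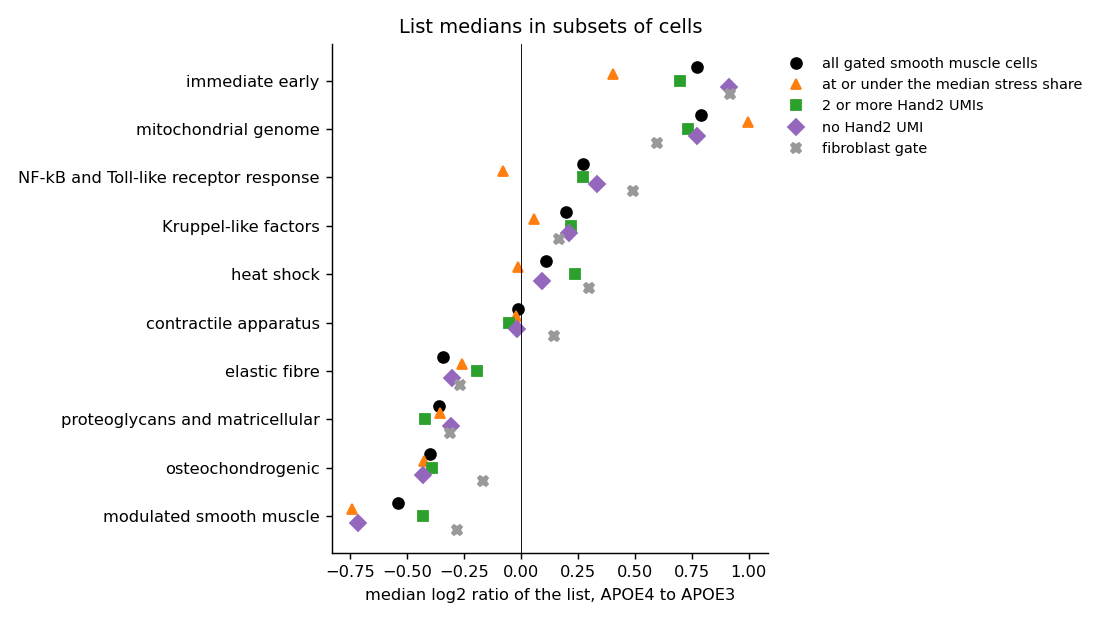
Median log2 ratio of APOE4 to APOE3 for 10 gene lists (rows) in all gated smooth muscle cells, in cells at or under the median stress share, in cells with 2 or more or with no Hand2 UMI, and in fibroblasts of the same libraries, without the gate genes. The mitochondrial genome list is above 0 and the 4 matrix and modulation lists are below 0 in every subset, whereas the NF-kB list is at -0.08 in the low-stress cells. The proteoglycan, osteochondrogenic and modulated lists share genes such as Mgp, Acan, Lum and Tnfrsf11b. The median of all counted genes was itself -0.09 in all gated cells.

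Fibroblasts of the same libraries shared some of these differences and not others. Gadd45b had a log2 ratio of 1.18 (1.10 to 1.25) in fibroblasts, Ier3 of 1.46 and Nfkbia of 1.03, all past 1.5-fold as in smooth muscle. Klf2 was at 0.14 there and Gclc at 0.27, against 1.14 and 1.10 in smooth muscle. Mgp was at -0.23 in fibroblasts and Rgs5 at -0.38, against -0.90 and -0.95. Comp was past 1.5-fold lower in both cell types, at a fibroblast log2 ratio of -1.03. Fbln5 at -0.57 and Emilin1 at -0.52 were also lower in fibroblasts but short of 1.5-fold, against -0.66 and -0.735 in smooth muscle. The elastic fibre median was -0.27 in fibroblasts and -0.34 in smooth muscle. Whether any gene differed between the cell types was not tested, since each type came from the same 2 libraries.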

How the data were processed

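Aortic cells of 3 pooled libraries (APOE2, APOE3 and APOE4) were sequenced as 10x Genomics single-cell RNA. The authors aligned and counted reads with Cell Ranger (7.0.1 in the file headers) on mm10 and deposited UMI counts per gene and filtered barcode. Doublets were not removed here; an alternative left out the highest 5% of Scrublet scores (scanpy 1.11.5). Cells were gated as described, UMIs summed per library and divided by the library's gated total (CPM). Exact conditional binomial intervals of the ratio and exact Poisson intervals of the CPM (scipy 1.17.1) cover counting error only. Fibroblasts needed 5000 UMIs and fewer than 3 C1q UMIs, macrophages 1000 UMIs and Acta2 and Tagln under 0.5%. Genes with a mean of at least 5 CPM over APOE3 and APOE4 were counted, and called past 1.5-fold or 2-fold. No test was possible with 1 library per group.

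On simulated counts for 9725 genes with 200 changed 2-fold, 200 were called in the true direction and 0 unchanged genes were called. The simulated libraries differed by counting error only. The result checks the calculation and gives no rate of false calls between real pools, mice or preparations. Named genes were the 15 highest and 15 lowest at a mean of at least 20 CPM, in each list up to 4 members past 1.5-fold and the 3 most abundant, and the study's smooth muscle genes; Ccn2, Vcam1, Rela, Tlr4, Myocd, Srf, Ddx3y, Glcci1, Rpa3, Ica1, Cd68, Cdh5 and the printed promoters were chosen after their values were seen. Some genes that the rule names are not reported here. The lists and the gate were chosen with earlier results of these data known. Coordinates are GENCODE vM21 (GRCm38), matched for 32235 of 32285 gene IDs; promoters are RefSeq.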

Additional observations from a re-analysis of the deposited data

How the results depend on the processing

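The counts of genes past 1.5-fold and 2-fold (307 and 101 higher, 132 and 17 lower) stayed within 1.5 times under the changes of UMI minimum, Acta2 and Tagln limit, mitochondrial limit, Dcn limit, doublet score, averaging over cells and total, and in the cells with a Hox UMI, with no Hand2 UMI, or with 10000 to 20000 UMIs. A mean of at least 1 CPM gave 614 and 238 higher and 314 and 62 lower, and at least 20 CPM gave 168 and 58 higher and 43 and 6 lower, since more or fewer genes were counted. Cells with no Hox UMI (443 and 340 cells) gave 469 and 62 lower, low-stress cells 26 lower at 2-fold, Hand2 cells 32 lower at 2-fold, and the median set to 0 gave 73 and 11 lower. The splits by Hand2, the 10000 to 20000 UMI window and the leaving out of gate genes were chosen after seeing the data. Of 95 named genes past 1.5-fold, 49 were past it under every one of 15 alternatives.

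The log2 ratio changed sign without the highest doublet scores for Cd74 (-1.08, also the macrophage marker median, of which Cd74 is the sole counted gene) and the MHC class II median (-0.65), the top 1% of APOE4 cells holding 92.4% of Cd74 UMIs. It changed sign in cells with no Hox UMI for Fbln2 (0.52), Mmp3 (1.43) and Hoxa5 (-0.13), in cells with no Hand2 UMI for Pln (0.006) and Igfbp2 (0.003), and in the 10000 to 20000 UMI window for Igfbp2 (0.065). No paired analysis was possible because each genotype had 1 library. Counting error is small at these depths, and what limits the comparison is the absence of replicate libraries.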

Other observations

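Genes past 1.5-fold stood side by side at a few positions, seen after the values were known. Over 711 bins of 2 Mb with at least 5 counted genes, the median share past 1.5-fold was 0%, against 4.52% of all counted genes, and 7 bins reached 40%. The mitochondrial genome was the highest, and a bin on chromosome 6 came next with 3 of 5 genes. Bins on chromosome 12 (Gm17056, Ifrd1 and Lsmem1) and chromosome 15 (Ccn3, Enpp2 and Tnfrsf11b) followed, each with 3 of 7 genes. Lsmem1, which led the highest 15 genes, is itself 1 of the 3 genes that brought its bin past 40%. On chromosome 6, within 1 Mb of Asns (chr6:7675169-7693254), 5 of 8 counted genes were past 1.5-fold, and in both directions. Asns at a log2 ratio of 2.67 and Glcci1 at 1.20 were higher in APOE4, and C1galt1 at -1.37, Rpa3 at -0.89 and Ica1 at -0.60 were lower. For Asns, C1galt1, Glcci1 and Ica1 the APOE2 level was close to the APOE3 level, at 1.98, 37.2, 28.9 and 9.80 CPM. Rpa3 was at 7.53 CPM in APOE4, 13.9 in APOE3 and 7.70 in APOE2. Within 5 Mb of Apoe on chromosome 7, 3 of 66 counted genes were past 1.5-fold higher and 0 lower. Within 15 Mb, 7 of 195 (3.59%) were higher and 5 (2.56%) lower, against 3.16% and 1.36% of all counted genes. Among those within 15 Mb were Fosb, Zfp36, Fxyd7, Zfp568 and Fxyd5. How many such bins would arise if genes past 1.5-fold were spread without regard to position was not tested. The causes of these groups, on chromosome 6 and elsewhere, were not tested either.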
